A study of Mus musculus with 4 samples.

Results

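This account covers 10 genes of matricellular and adhesive glycoproteins of bone and periosteum, chosen by name: the thrombospondins Thbs1, Thbs2, Thbs3 and Thbs4, the tenascins Tnc and Tnn, and Postn, Fn1, Sparc and Vcan. Of the 10, 9 had a row among the 17230 rows of the count table, and all 9 passed the low-count filter. Thbs4 had no row and was not analysed here. RNA of cells sorted out of mouse femurs at postnatal day 21 was sequenced in 4 libraries, which are treated here as bulk. The sort marks in the cell type labels are GFP and tdTomato, while the extraction protocol names tdTomato alone and a 10X loading. All mice carried a GFP allele of Cxcl12 (Cxcl12(GFP/+)), which marks CXCL12-abundant reticular cells of the marrow, and a Cre-dependent tdTomato at R26R, and were given tamoxifen at embryonic day 12.5. The Hes1-derived group (replicates 1 and 3, here libraries H1 and H3) also carried Hes1(CreER/+), and the Fgfr3-derived group (replicates 2 and 3, libraries F2 and F3) carried Fgfr3-iCreER, so that tdTomato marks descendants of fetal cells in which that gene was active. The series title names fetal perichondrium and chondrocytes as the origins. Genotype and origin cannot be told apart, and no label tells if a library is 1 animal or a pool, so p-values measure only the spread between these libraries.

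Matricellular proteins are secreted into the matrix, where they tune cell attachment, growth factor activity and collagen assembly instead of bearing load. Thrombospondins and tenascins are large multimeric proteins read by integrins and other surface receptors, periostin and fibronectin bridge collagens and cells, SPARC (osteonectin) binds collagen and mineral, and versican is a large proteoglycan that binds hyaluronan. In bone they are known from osteoblasts, periosteum and marrow stroma.

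Libraries held 22745128 to 26804832 counted reads, and the 9 genes together took 0.649% and 0.506% of the reads in H1 and H3 and 1.29% and 0.925% in F2 and F3. All 20 reticular stroma markers passed the low-count filter, and they summed to 23976 and 15714 CPM (read counts scaled to library size, with TMM factors) in H1 and H3 and 36879 and 25010 CPM in F2 and F3, with Cxcl12 at 7057 and 4180 CPM against 9764 and 7028 CPM. Of the 20, 18 had a negative log2 fold change (median −0.59), and 2 were called lower in the Hes1-derived group, or 6 with DESeq2. The libraries also held RNA of other cells. The summed level of 10 pan-leukocyte markers, all detected, was 6412 and 7458 CPM in Hes1-derived and 1801 and 3942 CPM in Fgfr3-derived libraries, and 6 of them were higher in the Hes1-derived group. That count became 0 without F2 (7 at an unadjusted p under 0.05), 1 without H3, 4 without H1, 10 without F3 and 2 when libraries were scaled to eGFP reads (eGFP scaling). All 10 B lymphocyte markers (2444 and 2276 against 338 and 597 CPM) and 9 of 10 erythroid markers (8113 and 4500 against 1201 and 1821 CPM) were higher, the erythroid count becoming 5 without F2 and 4 under eGFP scaling. Of 10 osteoblast markers 7 were lower (median log2 fold change −1.58), which became 2 without H3, 5 without any other library, and 0 under scaling to the reticular stroma genes (stroma scaling) and eGFP scaling (4 and 0 at an unadjusted p under 0.05). Of 10 pericyte and smooth muscle markers 6 were lower (350 and 233 against 828 and 584 CPM, median −1.38), which became 1 without H3, 2 without F2, and 0 under stroma and eGFP scaling (3 and 0 at an unadjusted p under 0.05). Of 9 tested markers of periosteal and SCA-1 type fibroblasts 3 were higher and none lower (0 at an unadjusted p under 0.05 with edgeR, and 0 with DESeq2 after adjustment), with a median of 1.25, opposite in sign to the median of the members. Their sums overlapped, at 1321 and 1022 against 986 and 1087 CPM, as did the most abundant markers Gsn and Dcn. The log2 fold change was positive for 7 of the 9 and negative for 2, Dcn and Pdgfra. The higher count became 1 without H3 or F2 and 6 under stroma scaling, and 1 was lower without F3. Neutrophil markers summed to 24924 and 29324 against 8311 and 20523 CPM, osteoclast markers to 1296 and 1610 against 3304 and 3283 CPM, endothelial markers to 116 and 125 against 43.3 and 58.7 CPM, and the 3 tested skeletal muscle markers to 27.6 and 8.26 against 19.5 and 20.3 CPM. Most of the osteoclast sum was Mmp9, also in the protease list below, at 1069 and 1256 against 2997 and 2983 CPM. Of 7 tested osteoclast markers 1 (Mmp9) was lower and 1 (Acp5) higher, with a median of −0.16. The part of these cells in the members' differences was not tested. The sum of 10 chondrocyte markers varied within both groups, at 657 and 2291 CPM in Hes1-derived and 3762 and 566 CPM in Fgfr3-derived libraries. Most of it was Col2a1, at 523 and 1951 against 3163 and 410 CPM. Of the 10, 9 had a negative log2 fold change and 0 were called. Sox9 and Col11a2 were lower in both Hes1-derived libraries, and the rest overlapped. In bulk RNA, fewer cells of a type and less RNA per cell cannot be told apart.

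Postn, Fn1 and Vcan were lower in the Hes1-derived libraries, by 2.57-fold, 2.22-fold and 2.84-fold. These 3 of 9 tested genes passed edgeR's quasi-likelihood test with Benjamini-Hochberg adjustment over 14330 genes, where 6.56% of all genes were called lower. None of the 9 was called higher (0 at an unadjusted p under 0.05, and 0 with DESeq2 or limma-voom), against 5.24% of all genes. Tnc, Sparc, Thbs2 and Thbs3 had both Hes1-derived libraries below both Fgfr3-derived ones without passing, and Thbs1 and Tnn overlapped between the groups. Leaving out H1, H3, F2 or F3 left 2, 1, 1 and 5 members called lower, where 5.69%, 1.22%, 2.05% and 6.76% of all genes were. DESeq2 called 6 of the 9 lower and 10.4% of all genes. In all, 7 of 9 had non-overlapping groups with the Hes1-derived libraries lower, a pattern that 32.1% of all tested genes shared. The median log2 fold change (Hes1-derived minus Fgfr3-derived) of the 9 was −1.14, beside −0.02 over all tested genes. It was −0.64 without F2, −0.39 under stroma scaling and −0.17 under eGFP scaling. The median over all tested genes in these fits was 0.03, 0.60 and 0.83.

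**Figure D1:**
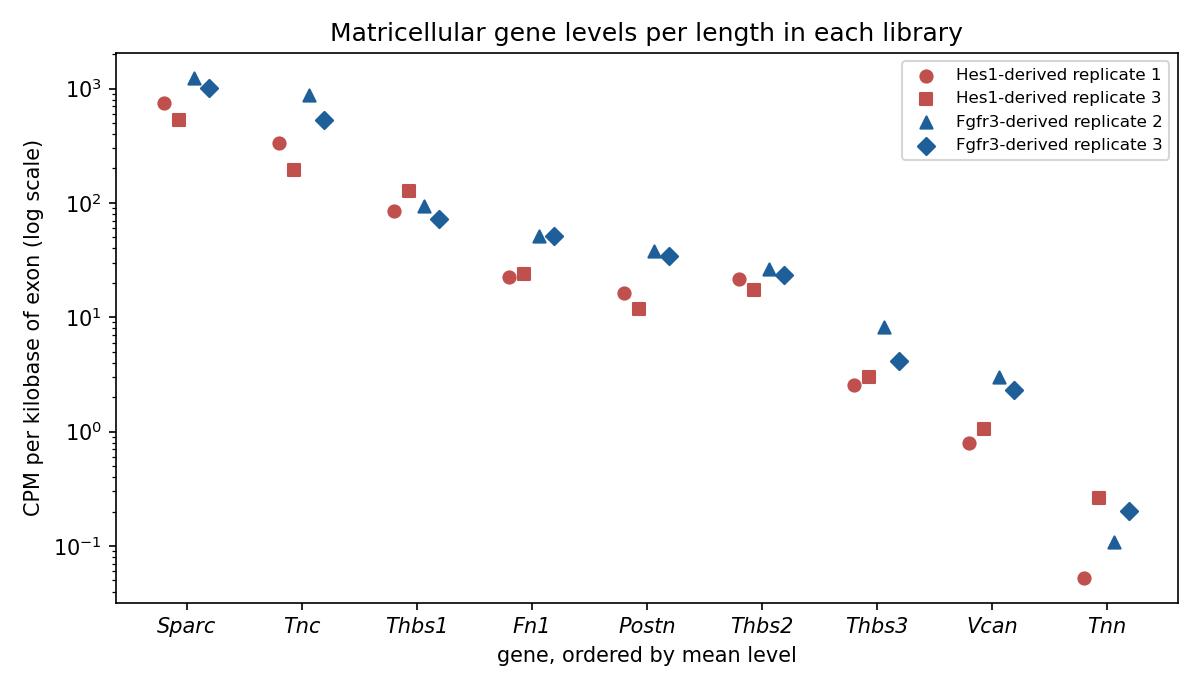
Level of each gene in CPM per kilobase of exon on a log axis, with 1 point per library (red, Hes1-derived; blue, Fgfr3-derived) and genes ordered by mean level. Sparc and Tnc stand highest, and Thbs1 is the gene among the 3 most abundant in which a Hes1-derived library (replicate 3) is the highest.

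Per length, the levels spanned from Sparc at 878 CPM per kilobase of exon (mean of 4 libraries) to Tnn at 0.157. Tnc followed at 483, Thbs1 at 94.5, Fn1 at 37.3, Postn at 24.999, Thbs2 at 22.3, Thbs3 at 4.48 and Vcan at 1.78 CPM per kilobase. Among neighbours in this order, Postn and Thbs2 changed places between groups: Thbs2 was the higher in both Hes1-derived libraries (21.8 and 17.3 against 16.2 and 11.7 CPM per kilobase) and Postn in both Fgfr3-derived ones (37.6 and 34.4 against 26.6 and 23.6). Of the summed per-kilobase level, Sparc took 53.0% to 60.9% in every library. The share of Tnc was 27.02% and 21.5% in H1 and H3 and 37.6% and 30.7% in F2 and F3. The share of Thbs1 was 6.86% and 14.1% against 3.99% and 4.23%. So Thbs1 took a larger share in both Hes1-derived libraries, as did Thbs2 (1.78% and 1.91% against 1.14% and 1.37%). Tnc, Postn and Vcan took a larger share in both Fgfr3-derived ones. Sparc and Tnc, both lower in CPM in the Hes1-derived libraries, made up most of the sum. Relative to Sparc alone, 66.3% of all other genes were higher in both Hes1-derived libraries and 8.77% lower. With 2 libraries a group an exact two-sided permutation test cannot go below p = 0.333.

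Postn encodes periostin, an adhesive protein of periosteum and ligaments that helps to cross-link collagen. The gene lies at chr3:54361109-54391037 on the plus strand (GRCm38). It stood at 141 and 102 CPM in H1 and H3 and at 328 and 299 CPM in F2 and F3. Both Hes1-derived values lay below both Fgfr3-derived values, and the Fgfr3-derived pair was close together. The log2 fold change was −1.36 ± 0.24 (SE), with an edgeR adjusted p of 0.021. The call ended without H3 (−1.15, adjusted p = 0.090), and after scaling to reticular stroma genes (−0.78, adjusted p = 0.42) or to eGFP reads (−0.59, adjusted p = 0.63). Osteoblasts also make periostin, and the 10 osteoblast markers summed to 4216 and 4239 CPM in H1 and H3 and 11192 and 16153 CPM in F2 and F3. Their part in the result was not tested.

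Fn1 encodes fibronectin, on which many integrins attach and which templates collagen fibrils. It lies at chr1:71585520-71653200 on the minus strand. Its replicates were the closest of the 9 genes, at 265 and 277 CPM in Hes1-derived and 598 and 606 CPM in Fgfr3-derived libraries. The difference was −1.15 ± 0.22 (SE; edgeR adjusted p = 0.025). Leaving out H1 (−1.12, adjusted p = 0.067), H3 (−1.19, adjusted p = 0.094) or F2 (−1.14, adjusted p = 0.060) ended the call with little move of the difference. Stroma scaling (−0.53, adjusted p = 0.58) and eGFP scaling (−0.29, adjusted p = 0.81) ended it with a smaller difference. Counts are per gene, so the alternatively spliced forms of fibronectin were not told apart.

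Vcan encodes versican and lies at chr13:89655312-89742509 on the minus strand. It was a low gene, with 263 and 379 reads in H1 and H3 and 1092 and 869 reads in F2 and F3, or 11.6 and 15.3 against 43.1 and 33.2 CPM. Of the 9 genes it had the most negative log2 fold change, −1.51 ± 0.28 (SE; edgeR adjusted p = 0.023). The call ended without H1 (−1.32, adjusted p = 0.059) and without F2 (−1.29, adjusted p = 0.080), and under stroma (−0.81, adjusted p = 0.39) and eGFP scaling (−0.56, adjusted p = 0.63). Monocytes can also make versican and fibronectin. The 12 monocyte and macrophage markers, all tested, summed to 5492 and 8059 CPM in Hes1-derived and 1702 and 3688 CPM in Fgfr3-derived libraries, the opposite order to both genes, and their part in the result was not tested.

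Tnc encodes tenascin-C, a hexameric glycoprotein of periosteum, tendon and remodelling matrix. It lies at chr4:63959785-64047015 on the minus strand. Tnc had 2574 and 1516 CPM in H1 and H3 and 6819 and 4111 CPM in F2 and F3. The groups did not overlap, but replicates differed by 1.70-fold and 1.66-fold, where the median tested gene differed by 1.23-fold and 1.27-fold. The log2 fold change of −1.42 ± 0.42 (SE) missed the threshold with edgeR (adjusted p = 0.070). DESeq2 (−1.39, adjusted p = 0.00029) and limma-voom (−1.42, adjusted p = 0.047) put it past the threshold, as did the fits without H1 (−1.85, adjusted p = 0.047) and without F3 (−1.70, adjusted p = 0.048). It stayed short of it without H3 (−1.09, adjusted p = 0.25) and without F2 (−0.995, adjusted p = 0.24), and the difference shrank to −0.79 (adjusted p = 0.42) under stroma scaling and −0.65 (adjusted p = 0.59) under eGFP scaling. Tendon is another known source of Tnc. Its 5 tested markers summed to 51.4 and 116 CPM in H1 and H3 and 213 and 78.9 CPM in F2 and F3, and none was called. Scx, its defining factor, had 0, 9, 16 and 39 reads, and Mkx was likewise lower in both Hes1-derived libraries. Tnmd, at 31, 6, 18 and 27 reads, overlapped between the groups, as did Fmod and Chad. Their part in the result was not tested. Tnn, which encodes tenascin-W and lies at chr1:160085029-160153580 on the minus strand, had 7 and 38 reads against 16 and 31 reads. The groups overlapped, and at these counts the 95% interval of its log2 fold change ran from −2.12 to 2.17. The direction of Tnn also turned with the library left out and with limma-voom.

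The RefSeq promoter table (build GRCm38.p6) held 10 entries for 8 of the 10 genes. Thbs1 and Fn1 had no entry. The 150 bases before a start are printed for Postn and Vcan, which passed the test, and for Tnc, which had a like difference with a wider spread. Capitals mark matches to the motifs searched.
Postn, chr3:54360957-54361106, plus strand: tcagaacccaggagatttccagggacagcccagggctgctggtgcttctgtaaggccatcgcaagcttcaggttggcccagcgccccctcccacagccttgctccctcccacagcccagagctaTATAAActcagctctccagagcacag
Tnc, chr4:64047016-64047165, minus strand: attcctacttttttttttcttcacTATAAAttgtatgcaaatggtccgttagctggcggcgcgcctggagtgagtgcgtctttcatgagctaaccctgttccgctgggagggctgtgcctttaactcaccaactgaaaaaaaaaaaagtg
Vcan, chr13:89742513-89742662, minus strand: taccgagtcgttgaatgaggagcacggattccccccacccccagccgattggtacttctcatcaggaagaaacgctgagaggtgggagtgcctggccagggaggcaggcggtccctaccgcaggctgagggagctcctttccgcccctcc
The Postn stretch holds TATAAA with its first base 26 bases before the start, and the Tnc stretch holds it 126 bases before. Postn and Tnc have 2 entries each, of which 1 is printed. The other Postn entry held none of the motifs, and the other Tnc entry held TATAAA 205 bases before its own start. In the Vcan stretch none of the motifs searched was found. The search covered TATAAA, the RUNX motif TGTGGT, the SMAD motif CAGACA, the AP-1 motif TGANTCA, the TEAD motif GGAATG and the E-box CACGTG, each on both strands of 300 bases. TATAAA was in 4 of the 10 entries, which belong to Thbs2, Postn and Tnc, and in 13.6% of 32851 promoters of the table. The SMAD motif was in 5 of the 10 entries and in 21% of all, the TEAD motif in 2 and 14.7%, the RUNX motif in 1 and 16.8%, the AP-1 motif in 0 and 7.81%, and the E-box in 0 and 7.15%. Both Tnc entries overlap and share bases. A match describes letters only.

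Sparc, at chr11:55394500-55423183 on the minus strand, encodes SPARC, the most abundant of these transcripts per length and a collagen-binding protein of bone. It stood at 2826 and 1995 CPM in Hes1-derived and 4684 and 3802 CPM in Fgfr3-derived libraries. The groups did not overlap. The log2 fold change was −0.82 ± 0.34 (SE), past the threshold with DESeq2 (adjusted p = 0.022) and not with edgeR (adjusted p = 0.16). DESeq2 was the 1 of 15 alternatives in which Sparc passed, and the difference shrank to −0.21 (adjusted p = 0.83) under stroma scaling and −0.03 (adjusted p = 0.98) under eGFP scaling. Sparc served as a denominator for ratios within a library, which do not depend on scaling. There were 0.911 and 0.760 reads of Tnc per read of Sparc in H1 and H3 and 1.46 and 1.08 in F2 and F3, and 0.05002 and 0.05124 against 0.0700 and 0.0786 reads of Postn. Reads of Vcan per read of Sparc were 0.00409 and 0.00766 against 0.00919 and 0.00874. These 3 ratios were lower in both Hes1-derived libraries, as 8.77% of all other genes were relative to Sparc. Thbs1 had 0.181 and 0.390 against 0.121 and 0.116 reads per read of Sparc, higher in both Hes1-derived libraries, as 66.3% of all other genes were. The ratio of Fn1 to Sparc overlapped, at 0.0936 and 0.139 against 0.128 and 0.159.

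None of the 3 thrombospondins tested passed the edgeR threshold. Thbs1, a trimeric thrombospondin known as an activator of latent TGF-beta and an inhibitor of vessel growth, lies at chr2:118111876-118127133 on the plus strand. It stood at 511 and 778 CPM in Hes1-derived and 565 and 443 CPM in Fgfr3-derived libraries. The groups overlapped, since F2 lay above H1. The log2 fold change was 0.36 (95% interval −0.33 to 1.04, edgeR adjusted p = 0.46). It fell to 0.02 (adjusted p = 0.98) without H3 and stood at 0.63 without H1, 0.24 without F3, 1.07 under stroma scaling and 1.34 under eGFP scaling, past the threshold in none of the 15 alternatives. Megakaryocytes and platelets are rich in Thbs1. Their 10 tested markers summed to 81.2 and 41.5 CPM against 95.2 and 24.96 CPM. H3, with more Thbs1 than H1, had the lower marker sum of that pair, and F2, with more Thbs1 than F3, had the higher one. Their part in the level of Thbs1 was not tested.

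Thbs2, the other trimeric member, lies at chr17:14665500-14694235 on the minus strand and had 152 and 121 CPM in Hes1-derived and 186 and 165 CPM in Fgfr3-derived libraries. Its log2 fold change was −0.36 (95% interval −0.87 to 0.14, edgeR adjusted p = 0.31), and it turned to 0.24 under stroma scaling and 0.44 under eGFP scaling. Per read of Thbs2 there were 3.35 and 6.43 reads of Thbs1 in H1 and H3 and 3.03 and 2.68 in F2 and F3. This ratio was higher in both Hes1-derived libraries, by a small margin for replicate 1, as were 45.8% of all other genes relative to Thbs2. Thbs3, a pentameric thrombospondin of skeletal tissue at chr3:89215180-89226837 on the plus strand, had 12.4 and 14.6 CPM against 39.7 and 19.8 CPM. Its log2 fold change of −1.14 ± 0.36 (SE) missed the threshold with edgeR (adjusted p = 0.086), and passed with DESeq2 (−1.11, adjusted p = 0.025) and without F3 (−1.503, adjusted p = 0.022). It was smaller without F2 (−0.53, adjusted p = 0.43), under stroma scaling (−0.39, adjusted p = 0.67) and under eGFP scaling (−0.17, adjusted p = 0.89). Its Fgfr3-derived libraries differed by 2.00-fold, and replicate 2, the higher one, was also the one with more chondrocyte marker RNA. The part of chondrocyte RNA in this was not tested. Comp, the fifth thrombospondin and a cartilage protein, named after its values were seen, had 39.0 and 134 CPM against 220 and 7.45 CPM, in the order of the summed chondrocyte markers within each group.

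**Figure D2:**
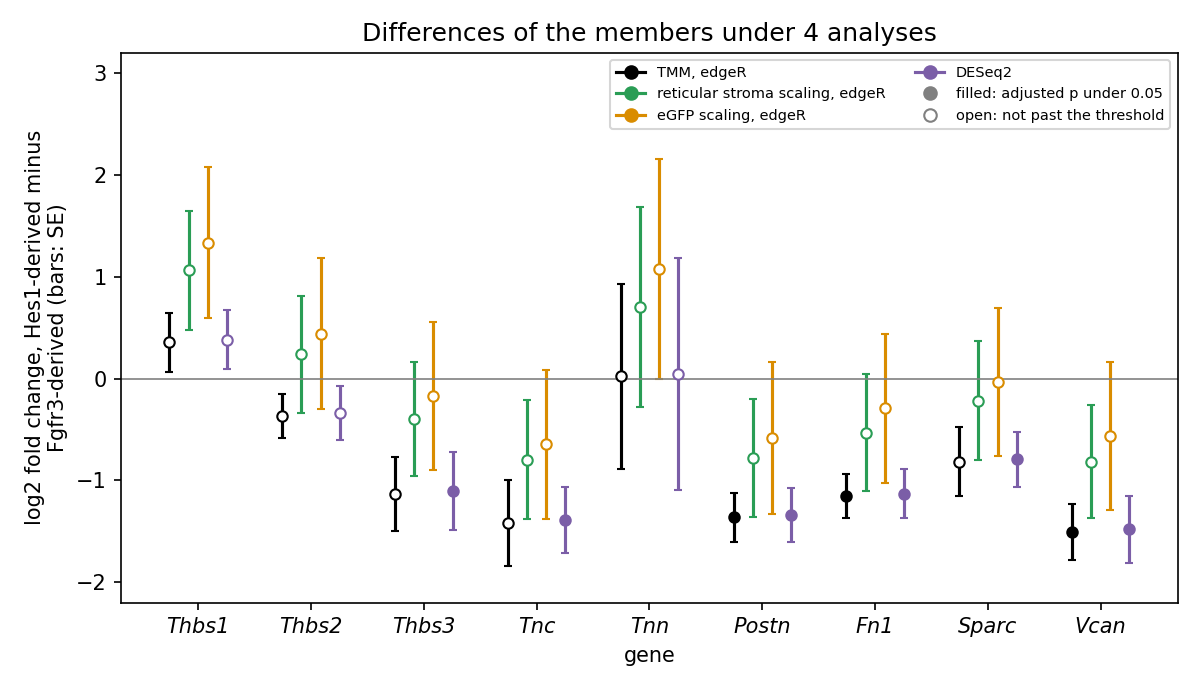
Log2 fold change of each gene with its SE under 4 analyses (TMM with edgeR, scaling to reticular stroma genes, scaling to eGFP reads, DESeq2), with filled points past an adjusted p of 0.05. Postn, Fn1 and Vcan pass with TMM and DESeq2, and no gene passes under either stroma-based scaling, where the bars are wider.

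Differences were also taken relative to stromal reads. Scaling to eGFP moved the median gene up by 0.86 and stroma scaling (20 genes) by 0.62 on the log2 scale, and both widened the errors (Postn −0.59 ± 0.74 (SE) under eGFP scaling). Under both, edgeR called 0 of the 9 genes lower (0 at an unadjusted p under 0.05), where it called 0.133% and 0.775% of all genes. Per 1000 eGFP reads, Tnc had 386 and 473 reads in H1 and H3 and 736 and 609 in F2 and F3, and Postn had 21.2 and 31.9 against 35.4 and 44.3. Tnc and Postn were thus lower in both Hes1-derived libraries on this scale too, a pattern of 8% of all tested genes. Fn1 had 39.7 and 86.4 against 64.6 and 89.7 reads, and Vcan 1.73 and 4.77 against 4.65 and 4.92, so these groups overlapped. In CPM, Fn1 differed only 1.05-fold between H1 and H3, so most of its gap between them on this scale lies in the eGFP reads. Sparc overlapped as well, at 424 and 622 against 506 and 563. Thbs1 had 76.6 and 243 reads per 1000 eGFP reads in H1 and H3 and 61.0 and 65.5 in F2 and F3, higher in both Hes1-derived libraries, as 46% of all genes were. Relative to the stroma genes, Tnc, Postn, Sparc and Vcan were lower without overlap, as 11% of all genes were. The eGFP row follows the Cxcl12 locus, whose GFP is a sort mark in the cell type labels but not in the extraction protocol.

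**Figure D3:**
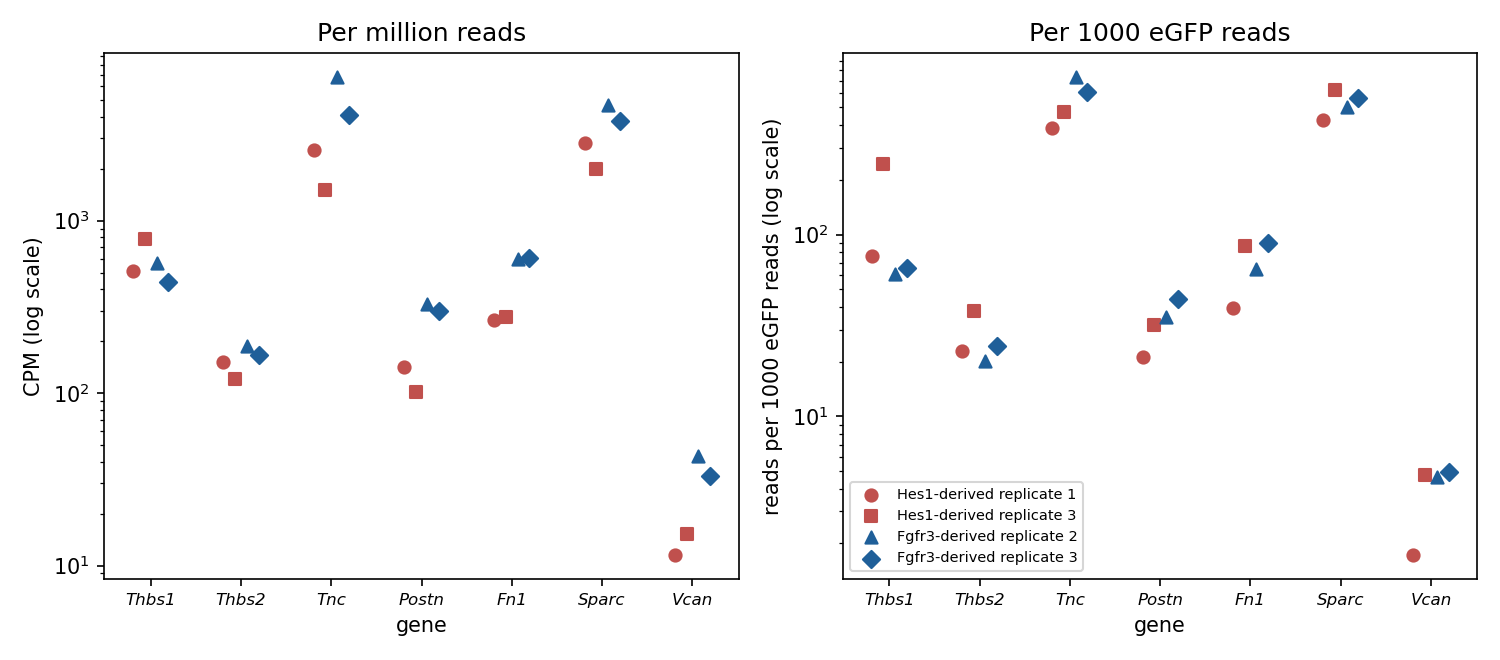
CPM (left) and reads per 1000 eGFP reads (right) of 7 genes on log axes, 1 point per library. The gap between red Hes1-derived and blue Fgfr3-derived points seen on the left remains without overlap for Tnc and Postn on the right, while the groups overlap for Thbs2, Fn1, Sparc and Vcan.

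Genes with the nearest profile over the 4 libraries, by distance of centred log2 CPM, were Plod1, a collagen lysyl hydroxylase, for Sparc (distance 0.018), followed by Reck. For Tnc they were Cfhr2, Sorbs2 and Alx4 (distances 0.10 to 0.13), of which Cfhr2 was under 1 CPM in all libraries. For Thbs1 they were Fem1c, Taf7 and Zcchc2 (0.057 to 0.075), with 40.8 CPM of Fem1c in H3 and 23.1 to 28.8 CPM in the others. With 4 libraries this order is a description only.

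Over all tested genes edgeR called 6.56% lower, 0.775% under stroma scaling and 0.133% under eGFP scaling. Of 19 other matricellular genes tested, 8 were lower and 11 had no call, with a median log2 fold change of −1.15. With TMM scaling edgeR called none higher (1 at an unadjusted p under 0.05; 1 with DESeq2 and 0 with limma-voom), and with stroma scaling it called 1 higher (3 at an unadjusted p under 0.05). Spp1, the gene of the mineral-binding protein osteopontin, stood at 578 and 454 CPM in Hes1-derived and 6382 and 7193 CPM in Fgfr3-derived libraries (−3.72 ± 0.36, edgeR adjusted p = 0.013) and kept its call in all 15 alternatives. Smoc2, a SPARC-related calcium-binding protein, showed −2.42 ± 0.25 and the CCN protein gene Wisp1 −2.50 ± 0.27 (edgeR adjusted p = 0.013 for both). These calls of Smoc2 and Wisp1 ended under eGFP scaling only (adjusted p = 0.20 and 0.18). The count of 8 became 5 under stroma scaling, 1 under eGFP scaling, 4 without H3, and 6 to 9 when another library was left out. The part of pan-leukocyte RNA, more abundant in H1 and H3, was not tested.

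The receptor list, 25 tested genes of integrins and other proteins that bind the members, moved both ways, with 7 lower and 3 higher (median −0.61). Over all tested genes 6.56% were called lower and 5.24% higher. Itgb3 and Itgb5, beta chains that pair with the alpha V integrin in receptors of periostin, fibronectin and osteopontin, showed −1.65 ± 0.24 (edgeR adjusted p = 0.016) and −2.08 ± 0.35 (adjusted p = 0.019). Itga9, the alpha chain of a tenascin-C receptor, showed −1.52 ± 0.23 (adjusted p = 0.017). Itga5 and Itgb1, the chains of the classical fibronectin receptor, named after their values were seen, had −1.08 ± 0.20 (adjusted p = 0.022) and −1.16 ± 0.28 (adjusted p = 0.042). In the other direction Cd36, a thrombospondin-1 receptor, stood at 157 and 115 CPM in Hes1-derived and 42.4 and 36.5 CPM in Fgfr3-derived libraries (1.79 ± 0.24, edgeR adjusted p = 0.016), and kept its call in all 15 alternatives. Itga4 (1.83 ± 0.33, adjusted p = 0.022) and Tlr2 (1.33 ± 0.31, adjusted p = 0.039) were also higher. Cd36, Itga4 and Tlr2 are genes that blood cells also express, and the 6412 and 7458 CPM of pan-leukocyte markers in these libraries stand against 1801 and 3942 CPM. Their part was not tested. The calls of the 5 lower receptors named here ended under stroma scaling (adjusted p = 0.067 to 0.63) and eGFP scaling (0.31 to 0.86), and that of Tlr2 under eGFP scaling (0.076). The lower count became 0 under stroma scaling (2 at an unadjusted p under 0.05) and 0 under eGFP scaling (0 at an unadjusted p under 0.05). The median of the receptors turned to 0.01 and 0.23, where that of all tested genes was 0.60 and 0.83. Without these scalings DESeq2 and limma-voom called 11 and 7 lower. Without each library in turn 2 to 10 receptors were lower, with 2 without H3, 3 without F2 and 10 without F3, and 1 to 5 were higher, with 1 without H3 or F2 and 5 without F3. The calls of Itga5 and Itgb1 ended without H1 (adjusted p = 0.067 and 0.056), H3 (0.095 and 0.19) or F2 (0.058 and 0.13). That of Itgb3 ended without H3 (adjusted p = 0.0502), and those of Itga4 and Tlr2 without H3 (0.074 and 0.19) or F2 (0.055 and 0.14).

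A list drawn up for proteases of these proteins had 10 of 17 tested genes lower (median −1.36), where 6.56% of all genes were. Whether each of these enzymes cuts a member was not examined. Mmp13, collagenase 3, showed −3.47 ± 0.37 (edgeR adjusted p = 0.013) and kept its call in all 15 alternatives. Bmp1, which processes procollagens and activates the cross-linking enzyme Lox, showed −2.02 ± 0.27 (adjusted p = 0.016), and Fap, fibroblast activation protein, −1.79 ± 0.26 (adjusted p = 0.016). The ADAMTS genes of the list, also named after their values were seen, did not all move alike. Adamts1 (−0.90, edgeR adjusted p = 0.074) and Adamts15 (0.18, adjusted p = 0.84) had no call. Adamts20 had none either (3.59, adjusted p = 0.12) and was higher in both Hes1-derived libraries, at 11 and 14 against 2 and 0 reads. The versican-cutting Adamts4, Adamts5 and Adamts9, named after their values were seen, were lower at −1.55 ± 0.26, −1.22 ± 0.28 and −1.89 ± 0.30 (edgeR adjusted p = 0.019, 0.038 and 0.019). Without H3 these 3 calls ended (adjusted p = 0.071, 0.17 and 0.061), and that of Adamts5 also ended without F2 (0.12). Apart from Mmp13, the calls of the proteases named here ended under stroma scaling (adjusted p = 0.10 to 0.50) and eGFP scaling (0.36 to 0.71). The share of all genes called lower was 0.775% and 0.133% under these scalings. The count of 10 became 3 under stroma scaling, 1 under eGFP scaling and 5 without H3.

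Of 11 tested genes of hyaluronan and its binding proteoglycans, the partners of versican, Itih5 (−1.002 ± 0.25, edgeR adjusted p = 0.044) and Has1, a hyaluronan synthase (−2.32 ± 0.59, adjusted p = 0.047), were lower. The median of the 11 was −0.81 and turned to 0.12 under eGFP scaling, where that of all tested genes was 0.83. Has1 was low, at 0.528 and 0.967 CPM against 4.10 and 3.44 CPM. Both calls ended under stroma scaling (adjusted p = 0.66 for Itih5 and 0.25 for Has1) and eGFP scaling (0.85 and 0.43). Itih5 lost its call without H3 (adjusted p = 0.23) and without F2 (0.14), and Has1 without any 1 of the 4 libraries (adjusted p = 0.079 to 0.17). Of 19 collagens, cross-linking enzymes and microfibril genes 9 were lower (median −1.25), where 6.56% of all genes were. The fibril-associated collagen Col12a1 showed −2.10 ± 0.21 (edgeR adjusted p = 0.013), Col5a2 −1.67 ± 0.22 (adjusted p = 0.016) and the fibrillin gene Fbn2 −2.28 ± 0.33 (adjusted p = 0.016). Under stroma scaling Col12a1 (adjusted p = 0.098) and Col5a2 (0.25) lost their calls, and under eGFP scaling all 3 did (0.25 to 0.48). The count of 9 became 16 with DESeq2 and 2 under stroma scaling, where 10.4% and 0.775% of all genes were called lower. Under eGFP scaling the count was 0 with edgeR (2 at an unadjusted p under 0.05), where 0.133% of all genes were called. Without that scaling limma-voom called 12. The median of the list was −1.62, −0.95, −1.25 and −1.07 without H1, H3, F2 and F3. Pan-leukocyte markers moved the opposite way to these lists, and their part was not tested.

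**Figure D4:**
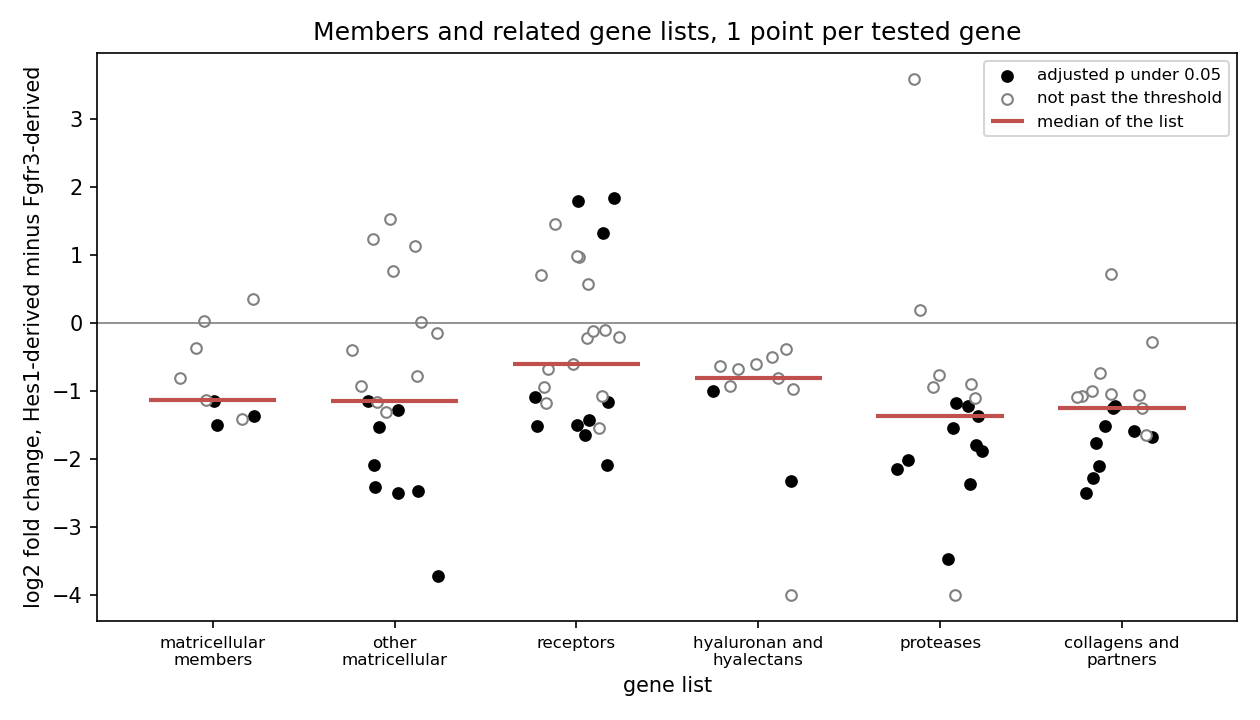
Log2 fold change of each tested gene in the matricellular set and 5 related lists (black, adjusted p under 0.05; open, not past the threshold; red line, median of the list). Medians lie between −1.36 for proteases and −0.61 for receptors, and receptors are the list with black points on both sides of 0.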

How the data were processed

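The authors deposited raw read counts for each gene and library. Tools in the submitters' processing notes, given without role or order, are HTSeq, Cufflinks, Cuffdiff, DESeq2, FastQC, Bowtie2 2.2.1 and TopHat2 2.0.13, with build mm10. The annotation and strand setting are not given in the sources used here, so reads of Thbs1, Thbs3, Tnc and Fn1 may include those of an opposite-strand gene that shares 208, 318, 176 and 292 exonic bases. The deposited depth-normalized and log2 tables were not used.

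Counts were tested with edgeR 4.0.16 (R 4.3.3; filterByExpr with minimum count 10, TMM, robust quasi-likelihood fit, Benjamini-Hochberg over 14330 genes, threshold 0.05). Before sharing across genes 2 residual degrees of freedom remain. Standard errors come from the log2 fold change and the F statistic, and 95% intervals use the fit's degrees of freedom. Alternatives used DESeq2 1.42.0 and limma-voom 3.58.1, other scalings and filters, and each library left out. Stroma scaling used the geometric mean of 20 reticular genes. Exon lengths and positions came from GENCODE M21 (GRCm38). The scripts were tested on simulated counts.

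The members and lists were chosen with earlier results of these data known. Text names all members, up to 3 called genes per related list and direction with the smallest p, the nearest 3 genes of the 3 most abundant members, and others where stated. Marker lists are given by their sums, some with counts of calls and with single markers named after their values were seen. Not all genes under this rule are printed. Protein features were not analysed here.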

Additional observations from a re-analysis of the deposited data

How the results depend on the processing

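Thbs3, Postn, Tnc, Fn1, Sparc and Vcan stayed negative in all 15 alternatives, and Thbs1 stayed positive but ranged from 0.02 without H3 to 1.34 under eGFP scaling. Sparc ranged from −1.09 to −0.03, Thbs3 from −1.503 to −0.17 and Tnc from −1.85 to −0.65. Thbs2 turned to 0.24 under stroma scaling and 0.44 under eGFP scaling, Tnn to −0.28 with limma-voom and to −1.55 without H3 and −0.33 without F2 (0.75 without H1), and Cxcl12 to 0.017 and 0.17 under stroma and eGFP scaling. Comp turned to 0.68 and 0.93 under these scalings, 0.85 with limma-voom, 0.23 without H1 and 3.56 without F2 (−1.54 without H3). The 3 members called lower became 0 under stroma and eGFP scaling, 6 with DESeq2 and 1 to 5 without each library in turn: 1 without H3 or F2, and 5 without F3. Over all genes, 751 were higher and 940 lower. These became 324 and 19 under eGFP scaling and 1411 and 1552 with DESeq2. Under stroma scaling 111 were lower. Without each library 183 to 1225 were higher and 181 to 998 lower. The share of higher calls was 44.4%, and 90.2% and 94.5% under stroma and eGFP scaling.

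Under stroma scaling 5 other matricellular genes, 0 receptors, 0 hyaluronan genes (1 at an unadjusted p under 0.05 with edgeR), 3 proteases and 2 collagens and partners were lower, and under eGFP scaling 1, 0, 0, 1 and 0. Without these scalings DESeq2 called 11 receptors, 3 of 14 hyaluronan genes and 16 collagens and partners lower. Without each library the lower counts were 4 to 9 other matricellular genes, 2 to 10 receptors, 0 to 1 hyaluronan genes, 5 to 11 proteases and 3 to 14 collagens and partners, and 1 to 5 receptors were higher. Leaving out a library leaves 1 in its group, assumed to vary like the other group. No paired analysis was possible because the groups share 1 replicate number only. Depth limits Tnn, with at most 38 reads.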
